A study of Mus musculus with 8 samples.

Results

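The genes described here are the core of the MHC class I antigen presentation pathway. They are the classical heavy chains H2-K1 and H2-D1, the light chain B2m, the peptide transporter genes Tap1 and Tap2, the loading factor Tapbp, the immunoproteasome subunits Psmb8, Psmb9 and Psmb10, and the class I transactivator Nlrc5. They were taken by gene name from the deposited table, where all 10 were found among 34745 genes, and all 10 passed the filter on low counts, with 15684 genes tested. The rule that picks them reads gene names and no level.

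Expression was measured by RNA sequencing of skin lesions taken at 16 weeks from mice labelled male, with 4 libraries in the group labelled NcstnΔKC and 4 in the normal group. The NcstnΔKC mice were Ncstn flx/flx; Krt14 CreER+/-, so that the keratin 14 promoter of basal keratinocytes drives a tamoxifen-dependent recombinase against the nicastrin gene. Tamoxifen was given by gavage from 8 weeks of age: a daily dose of 20 mg/kg over 5 days, then a dose every 10 days. The normal mice received corn oil. The protocol gives them the same floxed and Cre genotype, whereas their genotype label reads wildtype. Tamoxifen was recorded for the NcstnΔKC group alone, so effects of the drug and of the deletion cannot be told apart. No strain is named in the sources used here, which matters because class I heavy chains differ in sequence between strains. The labels give replicate numbers of mice and do not say whether each library is a separate animal, so p-values measure the spread between these samples.

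Total counts ran from 5835422 to 8663753 in the normal libraries and from 11881506 to 12893174 in the NcstnΔKC libraries. Krt5, Krt14, Krt10, Col1a1 and Col3a1, which mark epidermis and dermis, were present in every library. Normal replicates 1 and 2 stood apart in the collagen genes, with Col1a1 at 14467 and 15359.7 CPM (counts scaled to a common library size) against 748 and 885 CPM in normal replicates 3 and 4, and 1175 to 3643 CPM in NcstnΔKC libraries. The libraries labelled NcstnΔKC did not hold less Ncstn RNA than the normal ones. Ncstn was at 60.6 ± 1.54 in normal skin and at 57.7 ± 6.86 CPM in NcstnΔKC skin (SD, n = 4; edgeR adjusted p = 0.663). The labels are therefore not checked by the targeted transcript. The mouse labels read male, yet 2 libraries of each group, replicates 3 and 4, carried 22304 to 37109 counts of Xist, the transcript of the inactive X chromosome, and the others at most 9. This is the same split of the normal libraries as for collagen, and the members' calls are given below for the libraries with and without Xist. In whole tissue, fewer cells of a type and less RNA per cell cannot be told apart.

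MHC class I molecules show peptides from inside the cell to CD8 T cells and natural killer cells. Proteasomes cut proteins into peptides, and under interferon-γ the catalytic subunits Psmb8, Psmb9 and Psmb10 replace Psmb5, Psmb6 and Psmb7 to form the immunoproteasome. The TAP transporter, made of Tap1 and Tap2, carries the peptides into the endoplasmic reticulum, where tapasin (Tapbp) helps to load them onto a heavy chain paired with β2-microglobulin (B2m). Nearly all nucleated cells carry class I molecules, and keratinocytes raise them when exposed to interferon. Nlrc5 is a nuclear protein that joins factors bound to the X and Y boxes of class I promoters.

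Because several members share this promoter architecture, the stretches of DNA that hold it are shown first. Of the 10 members, 8 had an entry in the RefSeq promoter table (GRCm38.p6), which gives 250 bases before and 50 after each start; Tap2 and Nlrc5 had no entry. Printed 5′ to 3′ on the gene's strand, the stretches below run from 70 bases before the letters TGACG to 24 bases after the letters ATTGG. They lie at chr17:34000335-34000458 (H2-K1, minus strand), chr17:35262923-35263046 (H2-D1, plus strand) and chr2:122147539-122147662 (B2m, plus strand). Capitals mark TGACG (a core of cyclic AMP response elements, as in X boxes), CCAAT (the Y box, ATTGG on the other strand) and GAAA, any 2 bases, GAAA (the core of an interferon-stimulated response element), each searched on both strands.
H2-K1: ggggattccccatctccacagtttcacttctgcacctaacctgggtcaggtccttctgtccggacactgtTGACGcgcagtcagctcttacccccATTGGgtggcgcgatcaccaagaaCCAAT
H2-D1: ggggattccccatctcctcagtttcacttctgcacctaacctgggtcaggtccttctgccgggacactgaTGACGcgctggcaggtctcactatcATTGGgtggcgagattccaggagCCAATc
B2m: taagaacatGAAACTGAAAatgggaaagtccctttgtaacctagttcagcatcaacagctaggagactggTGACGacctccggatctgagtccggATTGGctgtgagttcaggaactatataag

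In all 3 stretches TGACG was followed by exactly 20 bases and then ATTGG. The first base of TGACG lay 55 bases before a RefSeq start of H2-K1 (a second start lies 14 bases further upstream), 101 before that of H2-D1 and 78 before that of B2m. This spaced pair, noticed in the printed sequences, occurred on either strand in 31 of 32851 promoter windows (0.0944%), under 27 gene symbols, among them the nonclassical class I gene H2-M3. The H2-K1 and H2-D1 stretches were identical at 81.5% of 124 positions, and the B2m stretch matched them at 40.3% and 37.9%. The H2-D1 stretch lies inside the longer gene model of the deposited table, which begins upstream of the RefSeq start. Of the 3 genes, whose levels are given below, H2-D1 was called higher and B2m lower, and H2-K1 did not pass the test. Over the 22 tested genes with the pair, these 3 included, 2 were called higher, 9 lower and 11 not called. Over all tested genes 21.4% were called higher and 22.7% lower. A link between the pair and the calls was not tested.

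Tap1 and Psmb9 are transcribed away from each other, and their promoter windows share 275 bases. The interval between their RefSeq starts, chr17:34187331-34187555, is 225 bases long and is shown on the Tap1 strand because both genes are read from it.
Psmb9 to Tap1: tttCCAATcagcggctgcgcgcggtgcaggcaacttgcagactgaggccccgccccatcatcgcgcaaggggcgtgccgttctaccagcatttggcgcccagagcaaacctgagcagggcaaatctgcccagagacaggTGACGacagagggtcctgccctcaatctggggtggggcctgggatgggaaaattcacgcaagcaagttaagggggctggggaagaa
Here CCAAT lies at the Psmb9 end and TGACG toward Tap1, so the spacing of the heavy chain promoters is not repeated. Over the 8 members with a window, CCAAT was found for 6 (all but Psmb8 and Psmb10; 37.4% of all windows hold it) and TGACG for 5 (H2-K1, H2-D1, B2m, Tap1 and Psmb9; 20.8% of all windows). An exact match to the interferon response core was found for B2m alone among them (3.44% of all windows). The letters tttcacttc, in both the H2-K1 and H2-D1 stretches, come near this core on the other strand and were not counted. GGG, any 5 bases, CC, as in κB sites, was found for 5 members and in 50.8% of all windows. A match to these letters is a description of the window and does not show that a factor binds there. Looser forms were not searched, so the lack of an exact match does not show that an element is absent.

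Across the members, 6 were higher in NcstnΔKC skin (H2-D1, Tap1, Tapbp, Psmb8, Psmb10 and Nlrc5), 1 was lower (B2m) and 3 did not pass the test (H2-K1, Tap2 and Psmb9). The test was edgeR's quasi-likelihood test over all tested genes, p-values adjusted by Benjamini and Hochberg's method and called under 0.05. Among all tested genes 21.4% were called higher and 22.7% lower, and the median log2 fold change was -0.022, against a median of 0.72 over the 10 members. The 4 NcstnΔKC libraries all lay above the 4 normal libraries for H2-D1, Tapbp and Nlrc5 (20.9% of tested genes did so) and all below them for B2m (20.7% did so). For the other 6 members the groups overlapped. CPM values below are counts over the library size scaled by the TMM method, and a log2 fold change is NcstnΔKC over normal with its standard error.

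**Figure D1:**
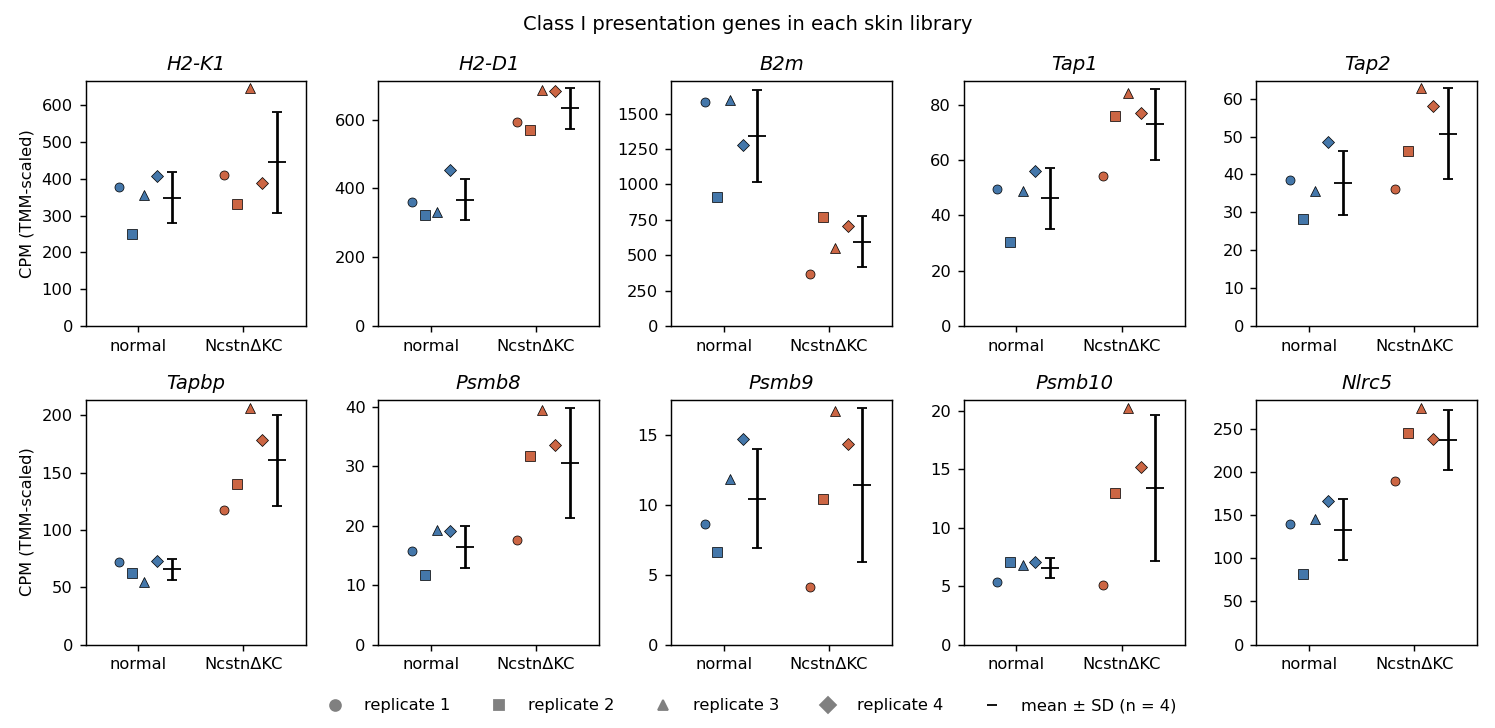
Level of each of the 10 genes in CPM (y axis, linear, from 0) in the 4 normal and 4 NcstnΔKC libraries (x axis); symbols mark the replicate number, the long tick is the mean and the bar 1 SD. The groups separate upward for H2-D1, Tapbp and Nlrc5 and downward for B2m, while NcstnΔKC replicate 1 (circle) sits among the normal libraries for Tap1, Tap2 and Psmb8 and below them for Psmb9 and Psmb10.

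The heavy chain gene H2-D1 (chr17:35262730-35267499 in mm10) was measured at 359, 322, 332 and 452 CPM in normal replicates 1 to 4 and at 592, 569, 685 and 683 CPM in NcstnΔKC replicates 1 to 4. Every NcstnΔKC library was above every normal one. The means were 366 ± 59.5 and 632 ± 60.5 CPM (SD, n = 4), a log2 fold change of 0.79 ± 0.15 (edgeR adjusted p = 0.00348).

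H2-K1 (chr17:33996017-34000333), the other classical heavy chain, was at 379, 249.2, 357 and 407 CPM in normal skin and at 411, 332, 646 and 389.7 CPM in NcstnΔKC skin. The groups overlapped, and NcstnΔKC replicate 3 stood above the other libraries. The log2 fold change of 0.35 ± 0.23 did not pass the test (adjusted p = 0.247), and its 95% interval, -0.18 to 0.88, includes the value of H2-D1. The heavy chains were not shown to differ in their response: the H2-K1 to H2-D1 ratio within a library was 0.725 times the normal ratio (exact two-sided permutation test, p = 0.0857, adjusted p = 0.15 over 7 ratios). In GENCODE M21, 11.1% of the 31-base stretches of H2-K1 exons also occur in H2-D1, and 26.9% of those of H2-D1 occur in some other gene. How the authors' counting divided reads between these genes is not stated, so both values are uncertain to that extent.

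B2m (chr2:122147686-122153083) moved the other way. Normal libraries held 1584, 911, 1595 and 1279 CPM, and NcstnΔKC libraries 365, 766, 548 and 707 CPM. The lowest normal library was still above the highest NcstnΔKC library. The mean fell from 1342 ± 322 to 597 ± 180 CPM (SD, n = 4), a log2 fold change of -1.17 ± 0.27 (adjusted p = 0.00813). None of the 31-base stretches of B2m occurs in another annotated gene, and Patl2, whose model spans B2m on the opposite strand, reached at most 0.202 CPM in any library. On the FPKM scale, which does not use TMM scaling, B2m was lower by a log2 difference of -0.86 with a pseudocount of 1 and did not pass (limma adjusted p = 0.0952).

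The heavy chains were also set against the light chain as a ratio within each library, which needs no scaling between libraries. Relative to the normal mean, the H2-D1 to B2m ratio was 5.85, 2.68, 4.51 and 3.49 in NcstnΔKC replicates 1 to 4 and between 0.752 and 1.28 in the normal libraries. The H2-K1 to B2m ratio was 4.30, 1.66, 4.51 and 2.11 in the same order, and between 0.857 and 1.22 in the normal libraries. Both ratios were higher in 4 of 4 NcstnΔKC libraries than in any normal library. The mean ratio was 3.96-fold higher for H2-D1 (95% interval of the log2 difference, 1.07 to 2.95) and 2.87-fold higher for H2-K1 (0.45 to 2.39). Each gave p = 0.0286 in an exact two-sided permutation test, the smallest that 70 arrangements allow. The adjusted p was 0.1 over the 7 ratios, so neither passed after adjustment. At that smallest p, a separation of these ratios alone could not pass after adjustment, whatever its size.

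**Figure D2:**
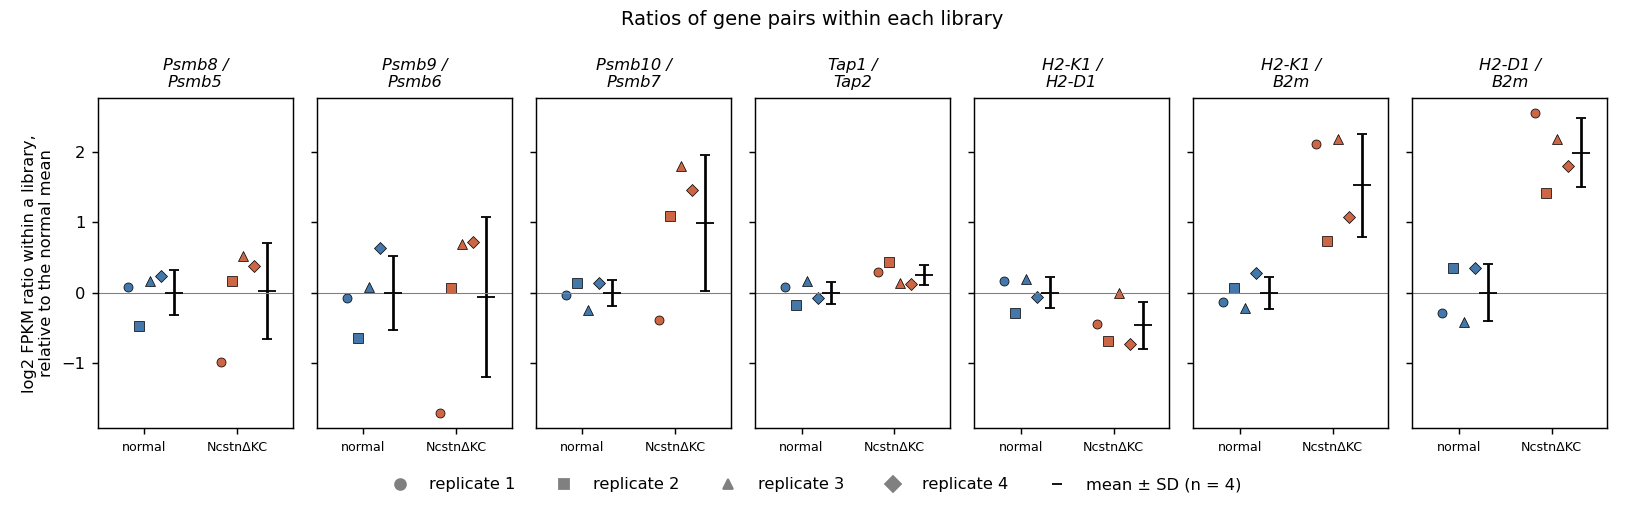
Ratio of 2 genes within each library, as log2 of the FPKM ratio minus the normal mean (y axis), for 7 gene pairs in normal and NcstnΔKC libraries (x axis); symbols mark the replicate and bars the mean ± 1 SD. Both ratios of a heavy chain to B2m separate the groups, and the 3 ratios of an immunoproteasome subunit to its constitutive counterpart do not, with NcstnΔKC replicate 1 lowest in each.

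Levels of different genes were compared as RPKM, counts scaled to the library total and to the length of merged exons in GENCODE M21, averaged over 4 libraries. B2m was the most abundant member in both groups, at 1392 in normal and 784 in NcstnΔKC skin, followed by H2-D1 at 127 and 274 and H2-K1 at 106 and 169. Ranges of B2m did not meet those of H2-D1 in either group, whereas H2-D1 and H2-K1 overlapped in both. Tapbp (16.2 and 49.8) and Nlrc5 (14.0 and 31.4) came next, then Tap2 (8.93 and 15.1) and Tap1 (7.55 and 15.0), and neighbours within each of these pairs overlapped. Psmb8 (4.33 and 10.2), Psmb10 (3.39 and 8.91) and Psmb9 (2.54 and 3.55) were the least abundant. The order of the means was the same in both groups. With the authors' FPKM the order of the lower members differs, with Psmb10 above Psmb8 and Tap1; the lengths implied by that FPKM exceed the whole gene for H2-K1, Tap1, Psmb8 and Psmb9 and fall short of the merged exons for Psmb10.

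Of the transporter genes, Tap1 passed the test and Tap2 did not. Tap1 (chr17:34187553-34197225) was at 49.5, 30.4, 49.0 and 56.2 CPM in normal skin and at 54.3, 75.8, 84.3 and 77.2 CPM in NcstnΔKC skin. NcstnΔKC replicate 1 lay within the normal range and the other 3 above it. Tap1 rose, with a log2 fold change of 0.65 ± 0.21 (adjusted p = 0.0315). The call was lost when NcstnΔKC replicate 2, 3 or 4 was left out, with an adjusted p of 0.0648, 0.0816 and 0.0672 in that order.

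Tap2 (chr17:34203527-34216321) was at 38.4, 28.2, 35.7 and 48.6 CPM in normal skin and at 36.2, 46.1, 62.9 and 58.0 CPM in NcstnΔKC skin. Again replicate 1 lay among the normal libraries. The log2 fold change of 0.43 ± 0.22 did not pass (adjusted p = 0.141), but it did without NcstnΔKC replicate 1 (0.56, adjusted p = 0.0403). The Tap1 to Tap2 ratio was 1.19 times the normal ratio (exact permutation p = 0.0857, adjusted p = 0.15), with a 95% interval of the log2 difference from -0.04 to 0.61.

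Tapbp encodes tapasin, which bridges the TAP transporter and the empty class I molecule. It had the largest log2 fold change among the 10 genes. Normal libraries held 72.4, 62.5, 54.4 and 73.1 CPM and NcstnΔKC libraries 117, 140.3, 206 and 179 CPM, without overlap. Tapbp rose, with a log2 fold change of 1.29 ± 0.19 (adjusted p = 0.00114). Its model (chr17:33915899-33929288) overlaps Zbtb22 on the same strand over 3422 bases. Zbtb22 was at 0 to 13.1 CPM, so the 2 genes' reads may be divided unevenly by the counting. Of the 31-base stretches of Tapbp, 26.9% occur in some other gene. Most of these, 22.1%, occur in Gm19412 on the opposite strand, which reached at most 0.521 CPM. The Tapbp value is uncertain to that extent.

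The wider set of 12 genes (peptide trimming, transport and loading, and folding in the endoplasmic reticulum) held 5 called higher and 0 lower. Over all tested genes the shares were 21.4% and 22.7%. The median log2 fold change of the set was 0.45. Sec61b (1.54 ± 0.29, adjusted p = 0.00333) and Sec61a1 (1.02 ± 0.16, adjusted p = 0.00141) encode parts of the translocation channel of the endoplasmic reticulum. Erap1, the aminopeptidase that trims peptides for class I, rose from 52.5 ± 9.45 to 106 ± 30.0 CPM (SD, n = 4; 1.02 ± 0.24, adjusted p = 0.00877). Lnpep, an aminopeptidase linked to cross-presentation, and the peptide transporter Abcb9 also rose (0.48 and 0.78). The tapasin relative Tapbpl (0.14, adjusted p = 0.786) and the chaperones of the loading complex Calr (-0.15, adjusted p = 0.74) and Pdia3 (0.26, adjusted p = 0.389) did not pass. Without NcstnΔKC replicate 1 and normal replicate 2 the list held 8 higher and 0 lower. These libraries were the lowest of their group for most members, so leaving them out, here and below, is no independent check.

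Of the immunoproteasome subunits, Psmb8 and Psmb10 were called higher and Psmb9 was not called. Psmb8 (chr17:34197721-34201454), which replaces Psmb5, was at 15.8, 11.7, 19.2 and 19.2 CPM in normal skin and at 17.6, 31.6, 39.4 and 33.6 CPM in NcstnΔKC skin. Only NcstnΔKC replicate 1 lay within the normal range. Psmb8 rose, with a log2 fold change of 0.89 ± 0.27 (adjusted p = 0.0237); without NcstnΔKC replicate 2, 3 or 4 the adjusted p was 0.0501, 0.0673 and 0.0549.

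Psmb10 (chr8:105935728-105938392), which replaces Psmb7, was at 5.31, 7.06, 6.78 and 7.04 CPM in normal skin and at 5.12, 13.0, 20.2 and 15.2 CPM in NcstnΔKC skin. The call rests on replicates 2 to 4, since NcstnΔKC replicate 1 was the lowest of all 8 libraries. The log2 fold change was 1.03 ± 0.37 (adjusted p = 0.0473), a call that 14 of 27 alternative settings did not make, among them the leaving out of any normal library or of NcstnΔKC replicate 2, 3 or 4 (adjusted p = 0.0673 to 0.129). It was called with NcstnΔKC replicate 1 left out.

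Psmb9 (chr17:34181988-34187764), which replaces Psmb6, was at 8.66, 6.65, 11.9 and 14.7 CPM in normal skin and at 4.11, 10.45, 16.7 and 14.4 CPM in NcstnΔKC skin. The NcstnΔKC libraries held both the lowest and the highest value. The log2 fold change was 0.12 ± 0.41 (adjusted p = 0.833), with a 95% interval from -0.82 to 1.06 that includes the values of Psmb8 and Psmb10. Psmb9, Tap1, Psmb8 and Tap2 lie side by side within 34335 bases of chromosome 17. The models of Psmb9 and Tap1 overlap by 212 bases on opposite strands, and the strand setting of the counting is not stated, so reads there cannot be assigned to either.

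Of the constitutive counterparts, Psmb5 rose from 9.83 ± 0.550 to 17.7 ± 2.40 CPM (SD, n = 4; log2 fold change 0.84 ± 0.16, adjusted p = 0.00323) without overlap between groups. Psmb6 (0.084 ± 0.16, adjusted p = 0.69) and Psmb7 (-0.12 ± 0.14, adjusted p = 0.528) did not pass. The Psmb8 to Psmb5 ratio was therefore close to its normal mean (1.02-fold, exact permutation p = 0.971, 95% interval of the log2 difference -1.21 to 0.98). The Psmb9 to Psmb6 ratio was 0.959 times the normal ratio (exact permutation p = 0.971, interval -2.34 to 1.36). These intervals are wide and do not show that the ratios were alike. The Psmb10 to Psmb7 ratio was 0.763 relative to the normal mean in NcstnΔKC replicate 1 and 2.11, 3.47 and 2.75 in replicates 2 to 4, 1.98-fold on average (exact permutation p = 0.143, adjusted p = 0.2).

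Among subunits shared by both kinds of proteasome, calls were made in both directions, as over all tested genes (21.4% higher and 22.7% lower). Of 11 other genes of the 20S core, 6 were called higher and 2 lower (median 0.39), led by Psmb4 (1.46 ± 0.18, adjusted p = 0.00049) and Psma1 (0.86 ± 0.13) upward and by Psma4 (-1.05 ± 0.12, adjusted p = 0.00036) and Psmb2 (-0.71 ± 0.19) downward. Of 18 genes of the 19S cap, which recognises ubiquitin and unfolds the substrate, 5 were higher and 3 lower (median 0.27), with Adrm1 (0.73) and Psmd3 (0.69) highest and Psmc1 (-0.99) and Psmc5 (-0.70) lowest. Of 9 activator and assembly genes, 3 were higher and 0 lower (median 0.24): Psmg3 (1.17), Psme3 (0.64) and Psme4 (0.54). The interferon-induced activator subunits Psme1 (-0.64 ± 0.25, adjusted p = 0.0637) and Psme2 (0.15 ± 0.25, adjusted p = 0.663) did not pass. Leaving out NcstnΔKC replicate 1 and normal replicate 2 gave 9 higher and 4 lower in the 19S cap, 5 and 2 in the 20S core, and 3 and 1 among activator and assembly genes.

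**Figure D3:**
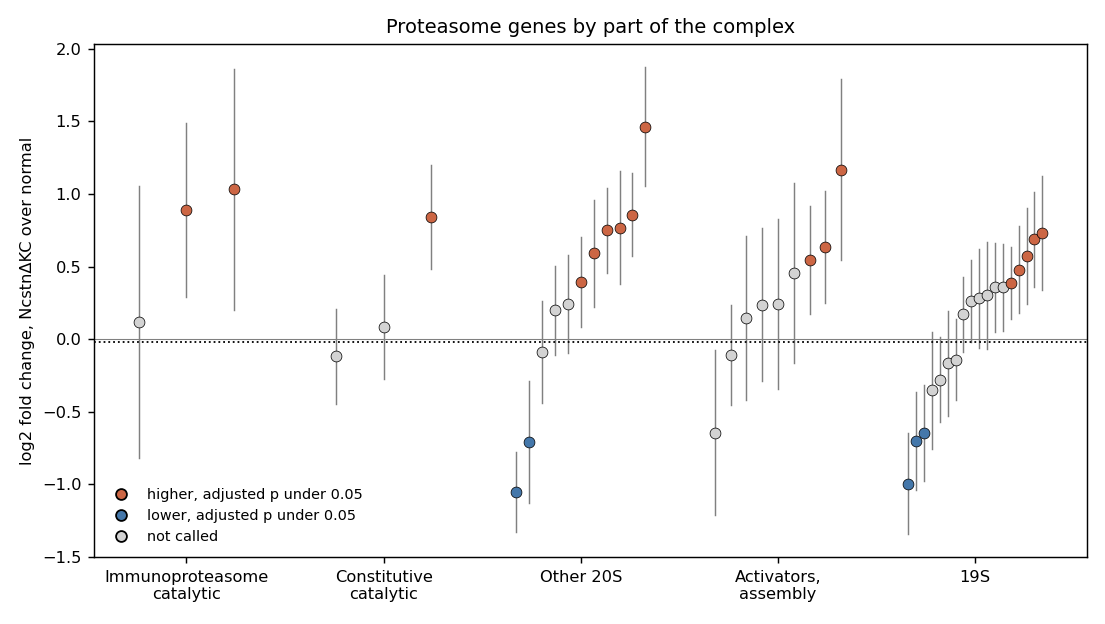
Log2 fold change of proteasome genes, NcstnΔKC over normal (y axis), grouped by part of the complex (x axis); bars are 95% intervals, colour marks the call and the dotted line the median of all tested genes. Called genes lie on both sides of 0 in the 20S core (6 higher, 2 lower) and the 19S cap (5 higher, 3 lower).

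Nlrc5 (chr8:94472763-94527272), the transactivator of class I genes, was at 139.8, 82.5, 145 and 166 CPM in normal skin and at 190.2, 246, 275 and 239 CPM in NcstnΔKC skin. Every NcstnΔKC library, replicate 1 included, was above every normal one. Nlrc5 rose, with a log2 fold change of 0.83 ± 0.22 (adjusted p = 0.0132).

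Among 19 genes for other factors that act on class I promoters, 3 were higher and 2 lower, with a median of -0.037, both counts below the shares over all tested genes (21.4% and 22.7%). Nfkb1, a subunit of NF-κB, rose from 133 ± 17.5 to 299.9 ± 7.87 CPM (SD, n = 4; 1.18 ± 0.12, adjusted p = 0.000244). Atf1, which binds cyclic AMP response elements, also rose (0.63 ± 0.15, adjusted p = 0.00993). Irf2, a repressor or activator at interferon response elements, and the coactivator gene Crebbp were lower (-0.71 and -0.50). Irf1 (0.65 ± 0.33, adjusted p = 0.137), the class II transactivator Ciita (0.16 ± 0.61) and the X box factor Rfx5 (-0.34 ± 0.29) did not pass. Without NcstnΔKC replicate 1 and normal replicate 2 this list held 6 higher and 2 lower.

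Transcripts of the interferon ligands named here were at or near 0. The Ifna genes and Ifne were not in the list. Ifnb1, Ifnk and Ifnl2 had 0 counts in all 8 libraries, and Ifng averaged 0.103 CPM in normal and 0.435 CPM in NcstnΔKC skin, below the filter. Of the 11 tested genes for interferon receptors and signalling, 4 were higher and 0 lower (21.4% and 22.7% over all tested genes), with a median of 0.44. The 4 were Socs3, a feedback inhibitor (1.83), the kinase gene Jak2 (0.97) and the receptor genes Ifngr1 (0.92 ± 0.22, adjusted p = 0.0103) and Ifnar1 (0.70 ± 0.17, adjusted p = 0.00878). Without NcstnΔKC replicate 1 and normal replicate 2, 7 were higher and 0 lower.

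Of 18 tested interferon-induced genes outside the class I pathway, 3 were higher and 2 lower, with a median of 0.44. Neither count exceeds the share over all tested genes (21.4% and 22.7%). The chemokine gene Cxcl10 rose from 2.91 ± 0.463 to 17.8 ± 9.95 CPM (SD, n = 4; 2.60 ± 0.55, adjusted p = 0.00536), and the GTPase genes Gbp2 (1.85) and Igtp (1.54) also rose. The antiviral genes Ifit3 (-2.48 ± 0.36, adjusted p = 0.00104) and Isg15 (-1.40 ± 0.47, adjusted p = 0.0389) were lower. The summed level of the list was 168 to 242 CPM in normal libraries and 87.0 CPM in NcstnΔKC replicate 1, against 365, 532 and 450.3 CPM in replicates 2, 3 and 4. Without NcstnΔKC replicate 1 and normal replicate 2 the list held 8 higher and 1 lower.

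Nonclassical class I genes, which present to specialised receptors or carry out other tasks, included 14 tested members. Of these, 5 were higher and 2 lower (21.4% and 22.7% over all tested genes), with a median of 0.46. H2-T23, whose product is a ligand of the CD94/NKG2 receptors of natural killer cells, rose from 46.8 ± 6.43 to 92.5 ± 18.2 CPM (SD, n = 4; 0.98 ± 0.17, adjusted p = 0.00225). Hfe, a regulator of iron uptake, rose from 14.7 ± 2.17 to 41.4 ± 16.5 CPM (1.498 ± 0.33, adjusted p = 0.00654). H2-Q6, H2-Q7 and H2-Q10 were also higher (0.91, 0.92 and 1.45), but they belong to the same multigene family as H2-K1 and H2-D1, and H2-Q10, for example, holds 9.50% of the 31-base stretches of H2-K1, so their counts are uncertain. Cd1d1, which presents lipids (-1.56 ± 0.36, adjusted p = 0.00851), and Mr1, which presents vitamin B metabolites (-0.73 ± 0.17, adjusted p = 0.00918), were lower. Both of these proteins, like Hfe, pair with β2-microglobulin.

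Markers of several other cell types also differed between the groups, and their part in the results was not tested. Over all tested genes 21.4% were called higher and 22.7% lower. The summed level of 8 leukocyte markers was 308 to 549.8 CPM in normal libraries and 368 (replicate 1), 822, 972 and 1137 CPM in NcstnΔKC libraries; 4 of 8 were called higher and 0 lower. Macrophage and monocyte markers (313 to 726 CPM against 361 to 1548 CPM; 4 of 8 higher), T cell markers (25.6 to 58.2 against 45.6 to 101; 3 of 8 higher) and CD8 T and natural killer cell markers (9.88 to 19.02 against 16.0 to 59.7; 2 of 6 tested higher) were again lowest in replicate 1 among NcstnΔKC libraries. Neutrophil markers rose in all 7 tested genes (15.5 to 28.9 against 107 to 527 CPM). Dendritic and Langerhans cell markers, which include class II genes, were lower in 7 of 8 tested genes (929.97 to 1700.0 against 354 to 724 CPM). Basal keratinocyte markers were higher in 8 of 9 genes (5634 to 7143 against 10833 to 15017 CPM). Suprabasal keratinocyte markers were lower in 4 of 8 genes and higher in 1 (6679 to 13367 against 4020 to 9062 CPM). Endothelial markers were higher in 1 of 8 genes and lower in 2 (321 to 399 against 272 to 425 CPM). Skeletal muscle markers were lower in 8 of 8 genes (6696 to 64364 against 617 to 5549 CPM). Hair follicle markers were lower in 6 of 6 tested (2215 to 36252 against 301 to 622 CPM). Normal replicate 2 alone set that upper end, with the other normal libraries at 2215 to 2814 CPM. Adipocyte markers were lower in 6 of 8 genes (368 to 933 against 84.3 to 411 CPM). Fibroblast markers were lower in 2 of 8 genes (5023 to 34792 against 4586 to 12862 CPM), near the share over all tested genes. Normal replicates 1 and 2 were highest.

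**Figure D4:**
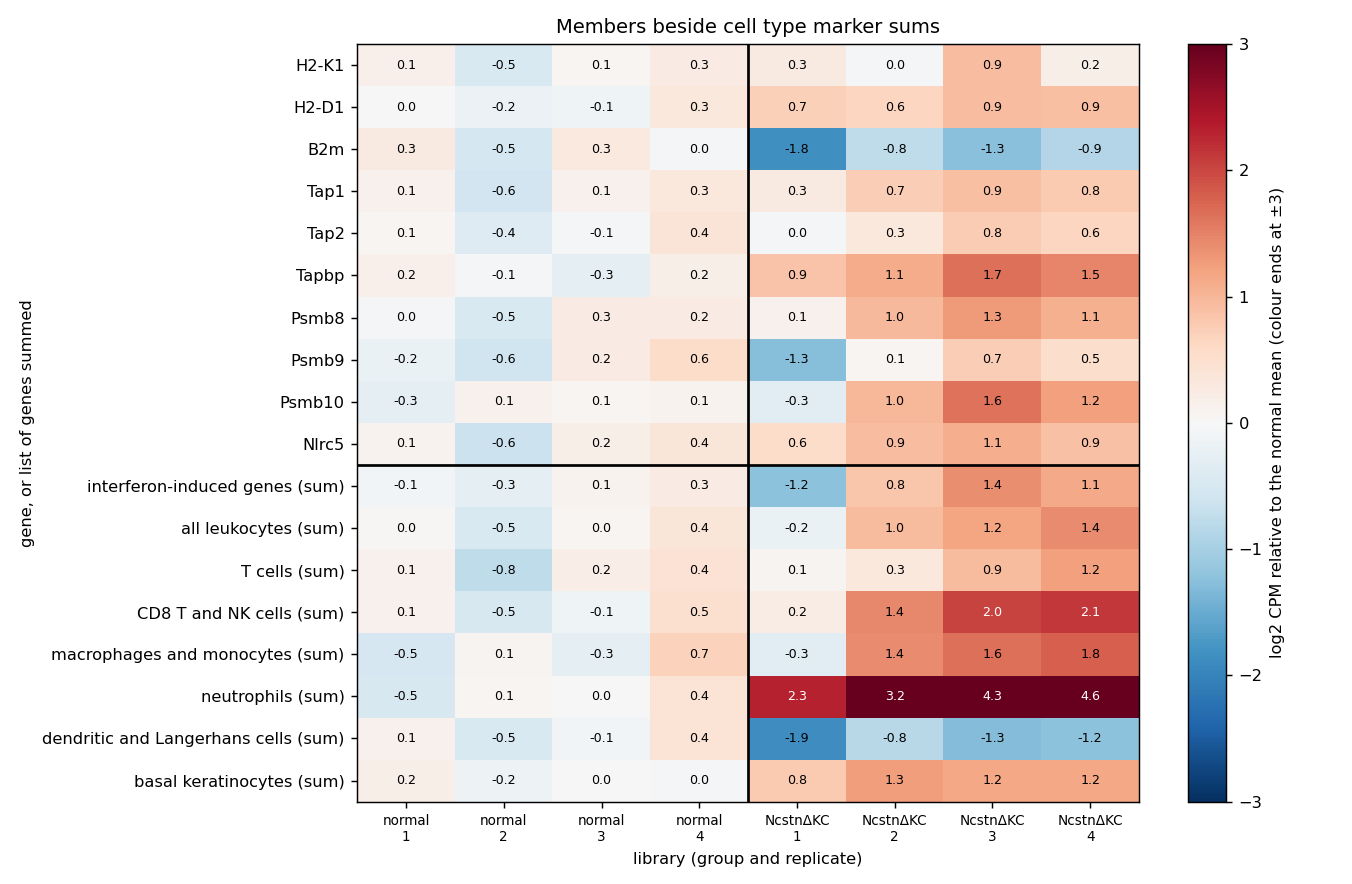
Log2 CPM relative to the normal mean (colour and printed value) of the 10 members and of summed lists of interferon-induced genes and cell type markers (rows) in 8 libraries (columns, group and replicate). In NcstnΔKC replicate 1, B2m, Tap2, Psmb9, Psmb10 and the interferon-induced, leukocyte, macrophage and dendritic cell sums are below the normal mean. The neutrophil (2.31), CD8 T and natural killer cell (0.228), T cell (0.0834) and basal keratinocyte (0.781) sums are above it. H2-K1, H2-D1, Tap1, Tapbp, Psmb8 and Nlrc5 are also above it.

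With basal keratinocyte genes as the scale in place of TMM, 0 members were called higher and 5 lower (2.21% and 71.8% of all tested genes; the same counts of members at an unadjusted p under 0.05 in edgeR), and the median of all tested genes shifted to -1.23. Tapbp was then at 0.063, Nlrc5 at -0.35, H2-D1 at -0.42 and B2m at -2.36. B2m lay below that median and the other 9 members above it, as with TMM. The change of scale moved the members and the median by similar amounts, so this order is no independent check. Scaling by total counts moved the median of all genes to 0.29 and left 7 members called higher and 1 lower (33.9% and 14.2% of all tested genes). The calls upward for H2-D1, Tapbp and Nlrc5 and downward for B2m held with each library left out in turn.

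**Figure D5:**
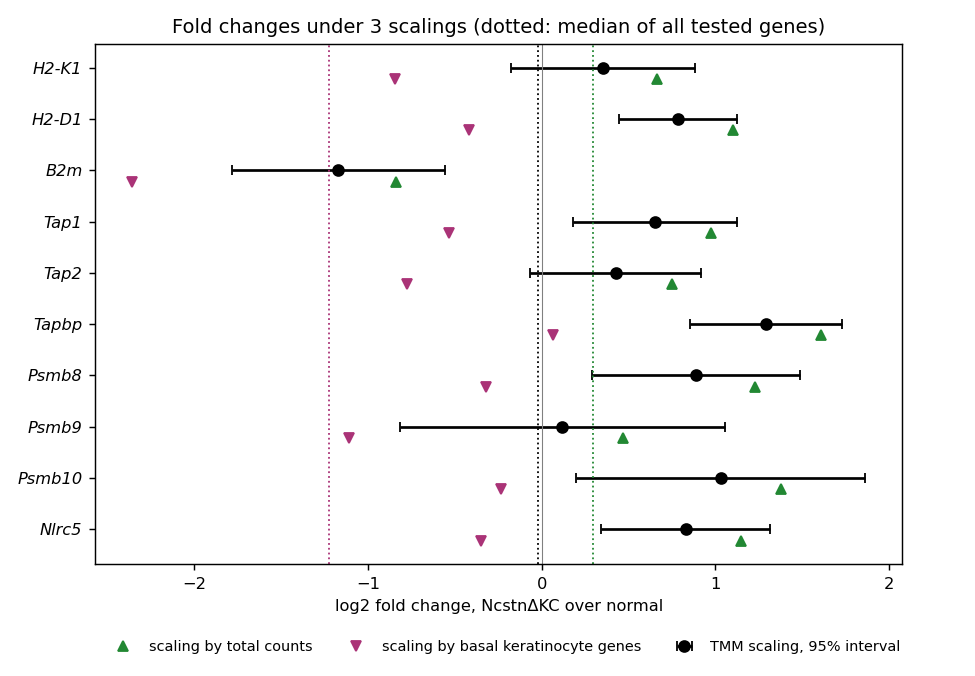
Log2 fold change of each member, NcstnΔKC over normal (x axis), with TMM scaling and its 95% interval (circles and bars), with total counts and with basal keratinocyte genes as the scale (triangles); dotted lines give the median of all tested genes under each scaling. B2m lies below the median and the other 9 members above it under all 3 scalings. A change of scaling moves the members and the median by similar amounts, so the 3 are not independent checks.

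In the 4 libraries with Xist alone, 7 members were called higher and 1 lower (26.3% and 25.4% of tested genes). In the 4 libraries without Xist edgeR called 0 members and 4 genes in all (0.0191% higher and 0.00638% lower), with 3 members at an unadjusted p under 0.05; no other tool was run there. There H2-D1 was at 0.77, Tapbp at 0.94, Nlrc5 at 0.97 and B2m at -1.14. The interaction of group with Xist was called for 0 of 10 members (lowest unadjusted p, Tapbp, 0.0601) and for 0 of 16745 genes, of which 984 had an unadjusted p under 0.05 in edgeR. With both NcstnΔKC replicate 1 and normal replicate 2 removed, 6 members were higher and 1 lower (24.7% and 25.7% of tested genes). All 7 calls were shared with the full set of libraries. The removed libraries were the lowest of their group for most members, among them Psmb9 (4.11 and 6.65 CPM). The edgeR adjusted p of Psmb10 went from 0.0473 to 0.00282 without them. These calls, and the list counts given above without these libraries, are therefore no independent check.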

How the data were processed

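Per the submitters' processing notes, reads were handled with TopHat2 2.0.9, TopHat and HTSeq, with the builds mm10 and hg38 named without a role; aligner settings, annotation release and strand setting are not given in the sources used here. The authors deposited raw counts and FPKM values per Ensembl gene, and the 16 value columns all matched a labelled sample. Libraries with at least 1000 Xist counts were called as carrying Xist. Genes were filtered with filterByExpr and compared with edgeR 4.0.16 in R 4.3.3 (TMM, robust quasi-likelihood fit, two-sided, Benjamini-Hochberg); the procedure was tested on simulated data. The common biological coefficient of variation was 0.315. Log2 ratios of 2 genes used the deposited FPKM, with no pseudocount, and exact permutation tests in scipy 1.17.1; their intervals come from inverting that test. Levels between genes used merged exon lengths of GENCODE M21. Alternatives changed the scaling, the filter, the test (DESeq2 1.42.0, limma 3.58.1), the replicate block, the depth, the handling of Xist and the libraries included. The members and gene lists were chosen with earlier results of these data known. Named genes are the members, the 2 largest called changes per direction in each pathway list at a mean of at least 1 CPM, ratio partners, and genes whose role is described. Tables were made with pandas 2.3.3 and plots with matplotlib 3.10.9. The values of 1 gene in the pathway lists are not reported here.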

Additional observations from a re-analysis of the deposited data

Results flagged for a closer look

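In normal replicate 1 Psmb10 was at 5.31 CPM, below the other normal libraries (6.78 to 7.06 CPM) by a gap that was large for the range of the group. It was the sole such value among 34 groups of 4 libraries tested (10 members and 7 ratios, in normal and NcstnΔKC skin), where chance alone flags about 1 in 20 groups. It rests on 35 counts in that library. Without it the log2 fold change of Psmb10 was 1.02 and edgeR's adjusted p 0.0875.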

How the results depend on the processing

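Under 27 alternatives H2-D1 and Nlrc5 kept their call in 25, Tapbp in 25, B2m in 24, Psmb8 in 22, Tap1 in 21 and Psmb10 in 13, and Tap2 gained one in 5. Scaling by basal keratinocyte genes gave 0 members higher and 5 lower, and reversed H2-K1 (-0.84), H2-D1 (-0.42), Tap1 (-0.53), Tap2 (-0.78), Psmb8 (-0.32), Psmb9 (-1.11), Psmb10 (-0.24) and Nlrc5 (-0.35). The libraries without Xist gave 0 higher and 0 lower, with Psmb9 at -0.067; this fit has 4 libraries. On log2 FPKM with a pseudocount of 1 or 0.1, 0 members were lower (limma, 13.5% of all genes; 0 also at an unadjusted p under 0.05), with B2m at -0.86 in both. Psmb9 also reversed with limma-voom (-0.0034); with each library left out it ran from -0.11 (without NcstnΔKC replicate 3) to 0.397. Leaving out each library in turn gave 3 to 7 members higher and 1 to 1 lower; the 3 came without NcstnΔKC replicate 2, 3 or 4 (18.7%, 17.4% and 18.5% of all genes higher), where Tap1, Psmb8 and Psmb10 were lost. The cause of these changes was not tested. The labels do not say whether replicate numbers pair the samples. With group means removed, same-numbered libraries correlated at -0.031, -0.041, -0.027 and 0.22. The highest correlations with another number were 0.25, 0.042, 0.062 and 0.19, which does not settle the question. The replicate block gave 5 members higher and 1 lower (18.8% and 19.3% of all genes), with Psmb10 at 0.92 (edgeR adjusted p = 0.0534). At least 1 CPM in 4 libraries kept the genes of the filter used, so at least 5 CPM was added after seeing the data. Depth limits Psmb9 and Psmb10 most, with 33 to 292 counts per library.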

Other observations

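The mean log2 CPM of the 10 members was followed most closely over the 8 libraries by Ikzf1, a lymphocyte transcription factor gene (Pearson r = 0.989), Ttc39a (0.985), Snx1 (0.978), Col23a1 (0.978) and Mill1, a class I-like gene (0.973). With the group means removed the closest were RP23-134H19.4 (0.99), Col7a1 (0.986), Rgs14 (0.985), Fbxo46 (0.985) and Tll1 (0.985). These correlations describe 8 libraries that share 2 groups and a scaling. Correlated with the mean of the other 9 members, B2m gave r = -0.42 and, with group means removed, 0.61 (no test was made). Of the 5 NKG2D ligand genes, which are stress-induced relatives of class I, 2 were tested and 0 called by edgeR, with H60c at 0.85 ± 0.33 (adjusted p = 0.0637) and Ulbp1 at 0.68 ± 0.45 (adjusted p = 0.241).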
